A study of Mus musculus with 2 samples.

Results

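The glucocorticoid receptor, its close relative the mineralocorticoid receptor, a steroid-activating enzyme and 7 genes known to respond to glucocorticoids were followed in heart RNA of aged mice. The 10 genes were matched by exact symbol among 55536 annotated genes, and all 10 were found, on 10 different chromosomes. They were selected on measured values of these same libraries, namely their levels, transcript shares and ratios between the libraries, so all such values are descriptions and none was tested. The mice were male B6CASTF1/J, first-generation hybrids of C57BL/6J and CAST/EiJ, 18 to 20 months old. The samples were 2 libraries of heart total RNA, labelled biological replicates 2 and 1, with no second genotype, treatment, age or tissue. Each used 300 ng of RNA, to which ERCC spike-ins (synthetic RNAs of known amount) were added, and a stranded protocol that depletes ribosomal RNA. The labels give the libraries separate tissue samples but one donor identifier, so whether they came from separate animals is not settled, and the difference between them may be technical in part.

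Glucocorticoids (corticosterone in mice) enter cells and bind the receptor Nr3c1, which is held ready by heat shock protein chaperones, moves to the nucleus and there activates or represses genes. Many activated genes carry a glucocorticoid response element, a pair of inverted AGAACA hexamers 3 bases apart. In heart muscle the mineralocorticoid receptor Nr3c2 binds corticosterone too, because little of the enzyme that inactivates the hormone is made there. Hormone levels follow a daily rhythm and stress, and the labels give neither an hour of collection nor a handling record.

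The receptors and the activating enzyme lay at close levels in the libraries. In replicate 2, 5 of the 7 responsive genes were at least 1.5-fold lower, where 2.88% of all genes compared were. Tsc22d3, Errfi1, Sgk1, Fkbp5 and Klf15 were 1.90-, 1.89-, 1.78-, 1.75- and 1.72-fold lower there by scaled counts. Klf9 was 1.30-fold lower, and Zbtb16 was level, with a log2 ratio of 0.03. Ratios are replicate 2 over replicate 1 on the log2 scale, from expected counts (reads shared out among transcripts they fit) scaled by the TMM method, with a 95% exact interval for counting error. Levels are TPM, a transcript abundance corrected for length and scaled to a fixed total. With 1 library on each side there is no replicate check on any ratio, and no p-value is given.

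The tissue showed the markers of heart muscle. The 6 cardiomyocyte markers summed to 26831 TPM in replicate 2 and 32597 TPM in replicate 1, and the depth over annotated genes was 37281459 expected counts in replicate 2 and 38858481 in replicate 1. Of 10 white adipocyte markers, 8 reached a mean of 1 TPM, and 8 of these 8 were at least 2-fold lower in replicate 2. Of all genes compared 1.13% were that much lower. The other 2 markers, Lep and Acvr1c, had log2 ratios of -0.54 and -0.36, with counting intervals that included 0. All 10 summed to 16.3 TPM in replicate 2 and 79.1 TPM in replicate 1, with none listed at 0 in either and Retn, the fat-cell hormone resistin, at 0.04 TPM in replicate 2. Macrophage markers summed to 97.2 TPM in replicate 2 and 132.8 TPM in replicate 1, and the median log2 ratios of the fibroblast, endothelial and smooth muscle lists were 0.07, 0.05 and 0.11. The 7 fibroblast markers summed to 429 TPM in replicate 2 and 512 TPM in replicate 1. Of these, 3 had counting intervals below 0, among them Col1a1 at -0.56 and Col1a2 at -0.47, and 3 had intervals above 0. Over all genes 20.6% lay below 0 and 14.5% above. The cardiomyocyte list had a median of -0.15 and the macrophage list -0.28, and 0 of 5 lymphocyte markers averaged 1 TPM. The part of fat-cell or macrophage RNA in the ratios of the 10 genes was not tested. In tissue RNA, fewer cells of a type and less RNA per cell cannot be told apart.

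Promoter sequence is shown for 4 of the genes that were lower in replicate 2, because the response element and the start sites differ among them. The windows are RefSeq's on GRCm38.p6, each covering 250 bases before a transcript start and 50 after it. They were found for 8 of the 10 genes, in 16 windows. The full palindrome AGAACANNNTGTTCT occurred in 3 of 32851 windows of this length, or 0.00913%, and 1 of those 3 belonged to Sgk1. It begins 189 bases before the start of the transcript Sgk1-202, as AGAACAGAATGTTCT, and stands in capitals in the first sequence. The window of the neighbouring start, that of Sgk1-201, held no match to it and no hexamer.
Sgk1-202, chr10:21993640-21993939, plus strand: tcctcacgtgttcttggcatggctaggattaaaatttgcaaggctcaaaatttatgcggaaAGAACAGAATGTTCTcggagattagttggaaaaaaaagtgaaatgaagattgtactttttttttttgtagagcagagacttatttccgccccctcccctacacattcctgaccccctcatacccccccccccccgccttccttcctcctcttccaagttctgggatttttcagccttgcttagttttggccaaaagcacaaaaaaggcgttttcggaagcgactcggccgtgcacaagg
Sgk1-201, chr10:21994416-21994715, plus strand: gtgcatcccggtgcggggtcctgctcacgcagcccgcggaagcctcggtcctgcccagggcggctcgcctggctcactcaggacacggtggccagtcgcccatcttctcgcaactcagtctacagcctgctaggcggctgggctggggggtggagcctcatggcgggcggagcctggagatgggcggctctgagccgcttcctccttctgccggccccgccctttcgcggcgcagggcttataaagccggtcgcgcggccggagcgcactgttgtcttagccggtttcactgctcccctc

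A relaxed palindrome, AGNACANNNTGTNCT, was in 21 windows (0.0639%), and among the 16 windows of these genes it was found in the same Sgk1 window alone. The hexamer AGAACA, searched on both strands, was in 19.0% of all windows and in 4 of the 16, which belong to Sgk1 and Tsc22d3. Each full palindrome holds hexamers, so those matches overlap. In the Tsc22d3 windows below, capitals mark the hexamer on the opposite strand. The far window lies beside the start of Tsc22d3-203, with its own start 137 bases downstream of that one. The near window is that of Tsc22d3-202, which starts 519 bases downstream of Tsc22d3-201. No window lay at the start of Tsc22d3-201, so the motifs before that start were not searched.
Tsc22d3 far window, chrX:140600473-140600772, minus strand: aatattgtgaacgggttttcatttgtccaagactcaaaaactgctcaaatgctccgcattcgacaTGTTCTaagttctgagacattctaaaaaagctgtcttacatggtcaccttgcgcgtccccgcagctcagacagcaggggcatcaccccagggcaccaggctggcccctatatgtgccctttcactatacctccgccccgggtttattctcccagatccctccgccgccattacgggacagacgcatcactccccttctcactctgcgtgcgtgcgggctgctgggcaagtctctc
Tsc22d3 near window, chrX:140542619-140542918, minus strand: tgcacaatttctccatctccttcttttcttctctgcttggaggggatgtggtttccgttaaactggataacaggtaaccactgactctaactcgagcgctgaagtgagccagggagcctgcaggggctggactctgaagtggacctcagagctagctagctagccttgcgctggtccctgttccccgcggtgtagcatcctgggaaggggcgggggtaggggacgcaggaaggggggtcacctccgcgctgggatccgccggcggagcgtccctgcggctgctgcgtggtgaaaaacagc

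The palindromic E-box CACGTG, a motif bound by clock and other helix-loop-helix factors, was in 7.15% of all windows. Among these genes 3 windows held it, 1 each of Klf15, Fkbp5 and Sgk1. The Klf15 window had 3 matches, at 228, 172 and 3 bases before the start, and the Fkbp5 window had 1, at 169 bases before the start. The Sgk1-202 window printed above had 1 at 246 bases before its start, left in lower case. Capitals mark the E-boxes here.
Klf15-201, chr6:90462326-90462625, plus strand: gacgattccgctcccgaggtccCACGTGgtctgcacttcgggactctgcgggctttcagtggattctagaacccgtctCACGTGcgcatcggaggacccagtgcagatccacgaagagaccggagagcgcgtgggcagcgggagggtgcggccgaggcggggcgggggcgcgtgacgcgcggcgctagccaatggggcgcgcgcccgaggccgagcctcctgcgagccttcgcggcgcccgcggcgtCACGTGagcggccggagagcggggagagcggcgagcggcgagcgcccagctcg
Fkbp5-201, chr17:28486100-28486399, minus strand: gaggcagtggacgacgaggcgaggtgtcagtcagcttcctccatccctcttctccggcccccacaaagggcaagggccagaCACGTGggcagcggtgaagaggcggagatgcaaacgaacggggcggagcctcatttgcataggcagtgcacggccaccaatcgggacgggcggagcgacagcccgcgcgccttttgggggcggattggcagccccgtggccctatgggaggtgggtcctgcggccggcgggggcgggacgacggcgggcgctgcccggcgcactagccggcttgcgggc
A match describes the letters of the reference strain within these windows only. The windows of Errfi1, Klf9, Nr3c2 and Hsd11b1 held none of the 4 motifs.

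Nr3c1 (ENSMUSG00000024431.15, chromosome 18, 39410545 to 39519421, minus strand; coordinates here and below are those of mm10 with GENCODE M21), the glucocorticoid receptor, stood at 25.19 TPM in replicate 2 and 24.17 TPM in replicate 1. The mean was 24.7 ± 0.721 TPM (SD, n = 2), and 10.6% of nuclear protein-coding genes were at or above it. Its expected counts were 3629 in replicate 2 and 3609 in replicate 1, a log2 ratio of 0.14 (0.08 to 0.21). The libraries thus lay close together, replicate 2 being slightly the higher.

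Nr3c2 (ENSMUSG00000031618.13, chromosome 8, 76899442 to 77245012, plus strand), the mineralocorticoid receptor, was at 8.5 TPM in replicate 2 and 7.79 TPM in replicate 1, or 8.15 ± 0.502 TPM (SD, n = 2). Its log2 ratio was 0.15 (0.03 to 0.28), again slightly higher in replicate 2, although the second transcript table listed it at 8.28 TPM in replicate 2 and 9.64 TPM in replicate 1. Nr3c1 made up 74.8% of the summed TPM of both receptors in replicate 2 and 75.6% in replicate 1. The second table gave 80.3% in replicate 2 and 75.9% in replicate 1, so the sign of the difference changed with the table, while the glucocorticoid receptor was the larger portion in each library.

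The receptors' transcripts were less settled than their totals. Nr3c1-203 and Nr3c1-204, which code for the same 792 amino acids and begin 3429 bases apart, were the main ones. Nr3c1-203 held 42.7% of the gene's TPM in replicate 2 and 33.3% in replicate 1, and Nr3c1-204 held 21.3% in replicate 2 and 35.1% in replicate 1. The same opposite shift appeared in the second table, with log2 ratios of 1.09 for Nr3c1-203 and -1.29 for Nr3c1-204, against 0.55 and -0.53 in the first. The authors' intervals for these TPM values overlapped, at 5.52 to 14.5 in replicate 2 and 4.09 to 11.9 in replicate 1 for Nr3c1-203. Nr3c1-202, annotated with 793 amino acids, was at 4.14 TPM in replicate 2 and 2.24 TPM in replicate 1, again with overlapping intervals. By the first table Nr3c2-203 led with 42.2% ± 5.89 (SD, n = 2) of the TPM of Nr3c2. Nr3c2-204, with the same 980 amino acids, held 23.9% ± 2.21 there and the short Nr3c2-206 held 23.6% ± 2.02. These shares differ by less than their spread. Nr3c2-206 had only 29.7 counts in replicate 2 and 30.9 in replicate 1. The second table gave it 11.97% in replicate 2 and 29.41% in replicate 1. Nr3c2-208, a nonsense-mediated decay transcript, was higher in replicate 2 in both tables, with log2 ratios of 2.43 and 1.22. All its exonic bases lie in coding transcripts and its authors' intervals overlapped, so its split is uncertain. Nr3c2-201 was at 0 in the first table and held 15.97% in the second.

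Hsd11b1 (ENSMUSG00000016194.14, chromosome 1, 193221634 to 193264075, minus strand) encodes the enzyme that makes active corticosterone from its inert 11-keto form. It had the lowest mean of the 10 in the gene table, though not in the second table. It stood at 5.86 TPM in replicate 2 and 6.1 TPM in replicate 1, a mean of 5.98 ± 0.170 TPM (SD, n = 2). It had only 225 counts in replicate 2 and 248 in replicate 1, so its log2 ratio of -0.00 carried the widest interval, -0.27 to 0.26. No difference was detectable at this depth. Its leading transcript was not settled, since Hsd11b1-205 held 80.8% of TPM by the first table but 4.77% by the second. There Hsd11b1-203 led with 40.7% in replicate 2 and Hsd11b1-202 with 40.6% in replicate 1.

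**Figure D1:**
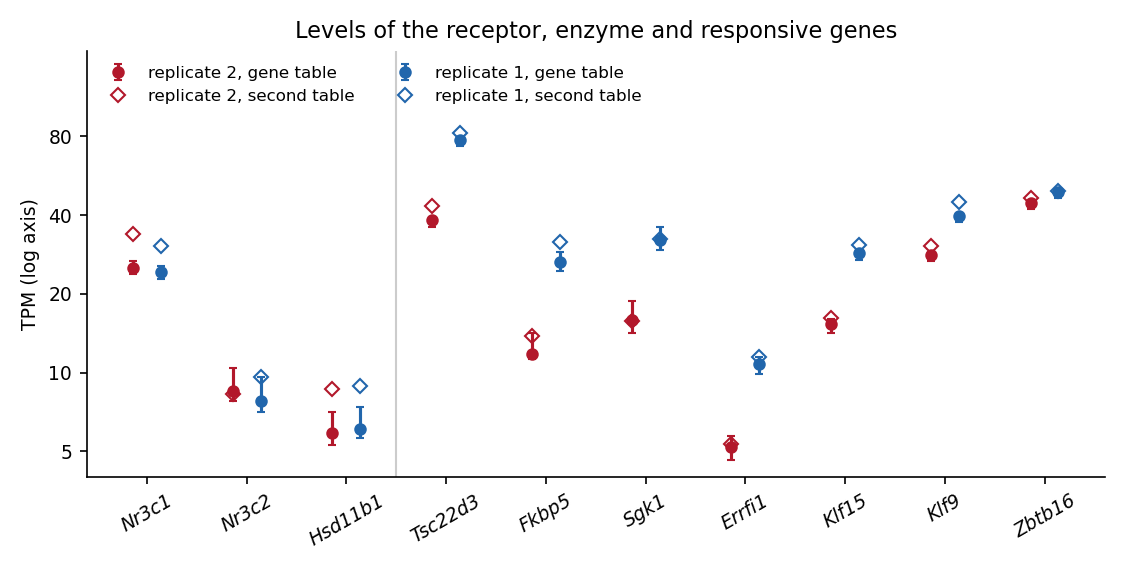
Level of each of the 10 genes in TPM (log axis), with replicate 2 in red at the left of each pair and replicate 1 in blue. Filled points are the gene table with the authors' interval and open diamonds the second table; the receptors and Hsd11b1 are level between the libraries, while Tsc22d3 stands at 38.4 TPM in replicate 2 and 77.3 TPM in replicate 1.

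Tsc22d3 (ENSMUSG00000031431.13, chromosome X, 140539528 to 140600659, minus strand) encodes GILZ, a leucine zipper protein that carries much of the anti-inflammatory action of glucocorticoids. It stood at 38.4 TPM in replicate 2 and 77.32 TPM in replicate 1, and its expected counts were 2073 in replicate 2 and 4333 in replicate 1. Replicate 2 was the lower, with a log2 ratio of -0.93 (-1.003 to -0.85), and 1.39% of the 12189 genes compared, those averaging 1 TPM or more, had a ratio as low.

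In TPM the difference lay mostly in Tsc22d3-201. This transcript, which codes for the 137 amino acids of GILZ, was at 23.41 TPM in replicate 2 and 62.14 TPM in replicate 1. By the first table its log2 ratio was -1.28 (-1.37 to -1.19), and by the second -1.41 (-1.52 to -1.30). Its authors' intervals, 20.1 to 25.6 TPM in replicate 2 and 57.6 to 63.2 TPM in replicate 1, were apart.

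Tsc22d3-203 starts 57472 bases upstream and codes for a longer protein of 201 amino acids. It was at 8.12 TPM in replicate 2 and 8.65 TPM in replicate 1, with a log2 ratio of 0.04 (-0.17 to 0.25), and -0.14 (-0.32 to 0.03) in the second table. The intervals of the ratios of Tsc22d3-201 and Tsc22d3-203 did not overlap in either table. Tsc22d3-202, a processed transcript with no annotated protein that starts 519 bases downstream of Tsc22d3-201, was at 6.57 TPM in replicate 2 and 6.02 TPM in replicate 1, with log2 ratios of 0.25 and, in the second table, -0.27. The transcripts share exons, and 45.5% of the exonic bases of Tsc22d3-201 lie in other coding transcripts. That share leaves out Tsc22d3-202, which has the same last exons as Tsc22d3-201. Of the exonic bases of Tsc22d3-202, 91.2% lie in coding transcripts of the gene, so its split from Tsc22d3-201 is uncertain. The share of Tsc22d3-201 was 61.0% in replicate 2 and 80.4% in replicate 1, and that of Tsc22d3-203 was 21.2% in replicate 2 and 11.2% in replicate 1.

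**Figure D2:**
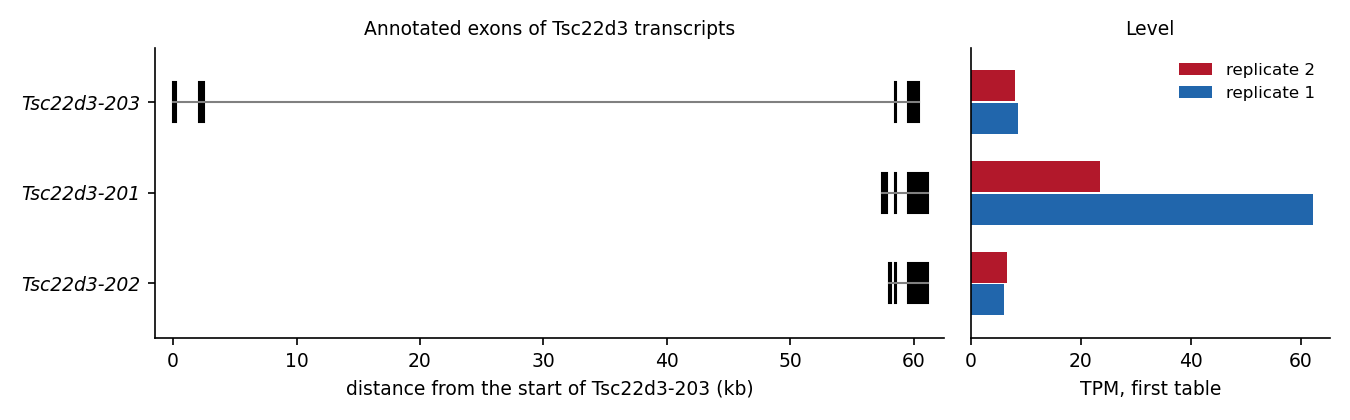
Left, annotated exons (boxes) of the 3 Tsc22d3 transcripts by distance in kb from the start of Tsc22d3-203; right, their TPM in the first table, replicate 2 in red above replicate 1 in blue. Tsc22d3-201 is at 23.4 TPM in replicate 2 and 62.1 TPM in replicate 1, while the transcript from the far start is near 8 TPM in both.

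Fkbp5 (ENSMUSG00000024222.17, chromosome 17, 28399094 to 28517527, minus strand) encodes a co-chaperone that lowers the receptor's affinity for hormone, forming a negative feedback. It stood at 11.82 TPM in replicate 2 and 26.37 TPM in replicate 1, from 1114 expected counts in replicate 2 and 2141 in replicate 1. Replicate 2 was the lower, with a log2 ratio of -0.80 (-0.91 to -0.70), and 1.71% of the genes compared had a ratio as low.

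The coding transcript Fkbp5-201, of 456 amino acids, led in both libraries and both tables. It was at 9.86 TPM in replicate 2 and 17.2 TPM in replicate 1, a log2 ratio of -0.67 (-0.79 to -0.56). The short processed transcript Fkbp5-203, 838 bases long, differed more, at 1.34 TPM in replicate 2 and 7.53 TPM in replicate 1, a log2 ratio of -2.31 in both tables. Of its exonic bases 93.8% lie in coding transcripts of the gene, and it held only 30.4 counts in replicate 2 and 172 in replicate 1, so its split from Fkbp5-201 is uncertain. Fkbp5-203 made up 11.4% of the gene's TPM in replicate 2 and 28.6% in replicate 1, but 2.73% of its counts in replicate 2 and 8.02% in replicate 1.

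Sgk1 (ENSMUSG00000019970.15, chromosome 10, 21882184 to 21999903, plus strand) encodes a serum- and glucocorticoid-induced kinase that acts on ion channels and transporters. It stood at 15.84 TPM in replicate 2 and 32.15 TPM in replicate 1, from 856 expected counts in replicate 2 and 1675 in replicate 1. Replicate 2 was the lower, with a log2 ratio of -0.83 (-0.95 to -0.71), and 1.61% of the genes compared had a ratio as low.

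The start from which most Sgk1 RNA came depended on the table. In the first, Sgk1-201 led with 43.5% ± 1.03 (SD, n = 2) of TPM, but in the second it was at or near 0. There Sgk1-202, the transcript with the palindrome before its start, held 46.8%. Sgk1-202 starts 776 bases upstream of Sgk1-201 and was at 3.55 TPM in replicate 2 and 6.64 TPM in replicate 1 in the first table. Its log2 ratio was -0.77 (-0.99 to -0.56) there and -0.64 (-0.79 to -0.50) in the second, and that of Sgk1-201 was -0.84 (-1.004 to -0.69) in the first. By the first table both transcripts were lower in replicate 2 and the intervals of their ratios overlapped. By the second, Sgk1-201 had 0 counts in replicate 2 and 43.9 in replicate 1, a ratio whose interval lay below that of Sgk1-202, so the tables differed on whether the starts differed. The retained-intron transcript Sgk1-209, with 24.0% of TPM in the first table, held 1.16% in the second.

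**Figure D3:**
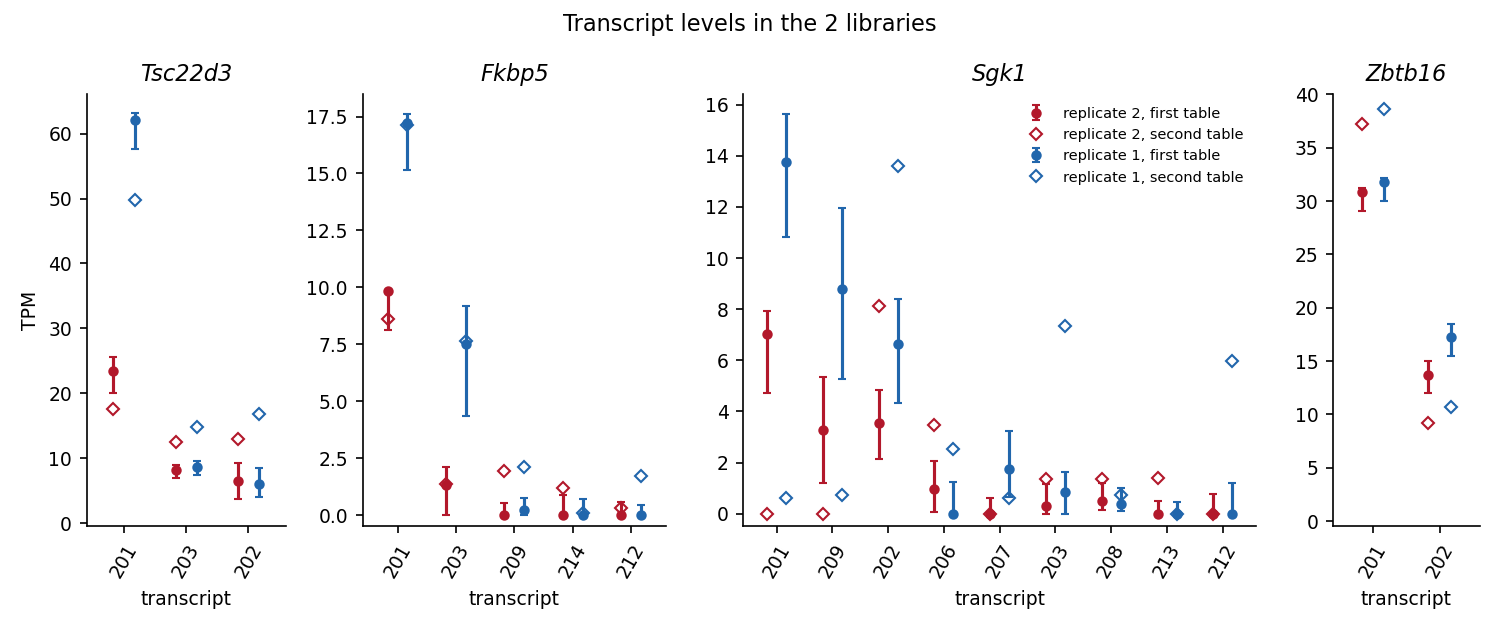
TPM of the transcripts with at least 5% of their gene in a table, for Tsc22d3, Fkbp5, Sgk1 and Zbtb16, replicate 2 in red to the left of replicate 1 in blue. Filled points are the first table with the authors' interval and open diamonds the second; Tsc22d3-201, Fkbp5-201, Fkbp5-203 and Sgk1-202 are lower in replicate 2 in both tables, and Sgk1-201 is near 0 in the second.

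Errfi1 (ENSMUSG00000028967.10, chromosome 4, 150853919 to 150868892, plus strand), also called Mig6, encodes a feedback inhibitor of the epidermal growth factor receptor. It stood at 5.18 TPM in replicate 2 and 10.75 TPM in replicate 1, from 453 expected counts in replicate 2 and 942 in replicate 1. Replicate 2 was the lower, with a log2 ratio of -0.92 (-1.08 to -0.76), and 1.41% of the genes compared had a ratio as low. The first table placed 96.1% ± 0.366 (SD, n = 2) of its TPM on Errfi1-201. The second split it between Errfi1-201 and Errfi1-202, which starts 1154 bases upstream with the same 461 amino acids. There Errfi1-202 held 24.6% in replicate 2 and 70.7% in replicate 1, so the tables did not place the difference on the same transcript.

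Klf15 (ENSMUSG00000030087.11, chromosome 6, 90462576 to 90475238, plus strand) encodes a zinc finger factor that controls lipid and amino acid use in heart muscle. It stood at 15.3 TPM in replicate 2 and 28.56 TPM in replicate 1, from 1056 expected counts in replicate 2 and 1993 in replicate 1. Replicate 2 was the lower, with a log2 ratio of -0.78 (-0.89 to -0.67), and 1.80% of the genes compared had a ratio as low. All 4 of its named transcripts code for 415 amino acids, and Klf15-201 led in the first table with 81.6%. In the second table the libraries had different leaders, Klf15-203 with 58.1% in replicate 2 and Klf15-202 with 51.0% in replicate 1.

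Klf9 (ENSMUSG00000033863.2, chromosome 19, 23141226 to 23168134, plus strand), a related zinc finger factor that answers to glucocorticoids and thyroid hormone, differed less. It stood at 28.13 TPM in replicate 2 and 39.69 TPM in replicate 1, from 3680 expected counts in replicate 2 and 5277 in replicate 1. Its log2 ratio was -0.38 (-0.44 to -0.32), and 6.26% of the genes compared had a ratio as low. Klf9-201 held 97.1% ± 0.857 (SD, n = 2) of its TPM.

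Zbtb16 (ENSMUSG00000066687.5, chromosome 9, 48654297 to 48836222, minus strand) encodes PLZF, a zinc finger repressor that glucocorticoids induce in many cell types. It stood at 44.54 TPM in replicate 2 and 49.07 TPM in replicate 1, from 5750 expected counts in replicate 2 and 6201 in replicate 1. Its log2 ratio was 0.03 (-0.02 to 0.08), and its interval lay above those of the other 6 responsive genes, whose upper bounds ended at -0.32 or lower. It had the narrowest interval of the 10. Its sign changed with the scaling, at -0.05 by total counts and 0.12 by spike-ins. Zbtb16-201 and Zbtb16-202, both of 673 amino acids, held 67.0% and 33.0% of its TPM (SD 3.13, n = 2), and the second table gave the first of them 79.2%.

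The 10 genes thus fell into separate ranges of spread. The coefficient of variation of the TPM over the 2 libraries was 2.8% to 6.8% for Nr3c1, Nr3c2, Hsd11b1 and Zbtb16, 24.1% for Klf9 and 42.8% to 53.9% for the other 5. Ordered by mean TPM, Tsc22d3 came first at 57.9 ± 27.5, then Zbtb16 at 46.8 ± 3.20, Klf9 at 33.9 ± 8.17 and Nr3c1 at 24.7 ± 0.721 (SD, n = 2 each). Sgk1 at 24.0 ± 11.5, Klf15 at 21.9 ± 9.38 and Fkbp5 at 19.1 ± 10.3 followed, and Nr3c2, Errfi1 and Hsd11b1 came last at 8.15 ± 0.502, 7.97 ± 3.94 and 5.98 ± 0.170. Of the 9 neighbouring pairs in this order, 6 had library ranges that overlapped. The exceptions were Zbtb16 over Klf9, Klf9 over Nr3c1 and Fkbp5 over Nr3c2. This order is that of the gene table. In the second table the ranges of Klf9 and Nr3c1 overlapped. There Klf9 was at 30.4 TPM in replicate 2 and 44.7 TPM in replicate 1, and Nr3c1 at 33.8 TPM and 30.4 TPM. By the gene table Zbtb16 was the highest and Nr3c1 the fourth in replicate 2, whereas in replicate 1 Tsc22d3 was the highest and Nr3c1 the seventh.

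Set beside all genes, 5 of the 10 were at least 1.5-fold lower in replicate 2, where 2.88% of the 12189 genes were, and 0 were 1.5-fold higher, where 2.17% were. At 2-fold, 0 of 10 were lower, against 1.13% of all genes, and 0 were higher, against 0.533%. The second table gave 5 of 10 at 1.5-fold lower, against 2.79% of all genes, and 0 at 2-fold lower, against 1.15%. The counting interval lay below 0 for 6, against 20.6% of all genes, and above 0 for 2, against 14.5%. The median log2 ratio was -0.58 for the 10 and -0.02 for all genes. Because the genes were chosen with these ratios known, nothing is read from the counts.

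The 2-fold line runs just below these genes, and the scaling decides the count. Scaling by total counts put 1 of 10, Tsc22d3, past 2-fold. The ratio of the deposited TPM put 4 past it, Fkbp5, Errfi1, Sgk1 and Tsc22d3, against 1.94% of all genes, but on that scale the median of all genes was itself -0.15. Relative to that median Fkbp5 was at -1.01, and Errfi1, Sgk1 and Tsc22d3 fell short of 2-fold. The 5 genes were lower in replicate 2 under every scaling run and in the second table, with log2 ratios between -1.16 and -0.68.

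**Figure D4:**
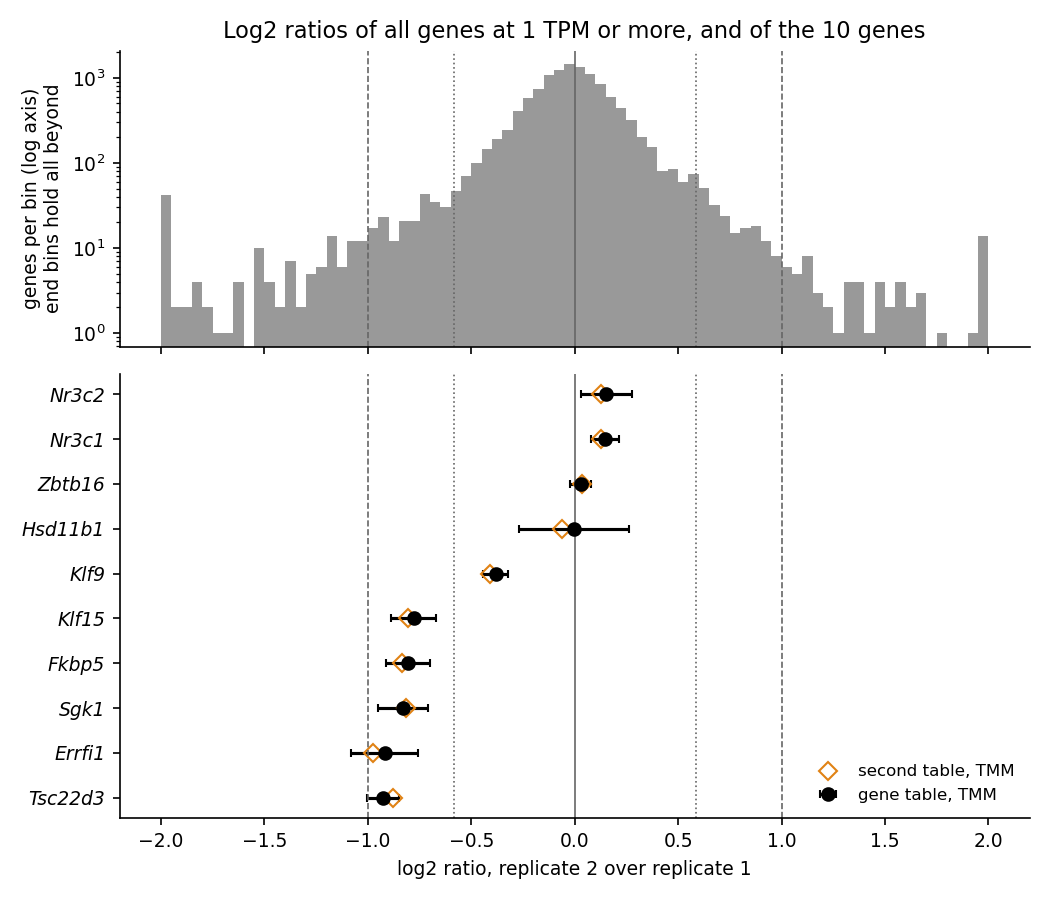
Top, number of genes (log axis) by log2 ratio of replicate 2 over replicate 1 among 12189 genes; bottom, the 10 genes with their 95% counting intervals (filled) and the second table (open). Dotted lines mark 1.5-fold and dashed lines 2-fold; Tsc22d3, Errfi1, Sgk1, Fkbp5 and Klf15 lie between them on the low side, and the receptors lie just above 0.

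Of 10 receptor chaperones, 9 had a counting interval below 0, against 20.6% of all genes. Such intervals narrow as counts rise, and the median level of this list was 110 TPM. That of Bag1 lay below 0 at a log2 ratio of only -0.13. In replicate 2, 2 were at least 1.5-fold lower, 0 higher and 0 past 2-fold, with a median log2 ratio of -0.27. At 1.5-fold 2.88% of all genes were lower and 2.17% higher. The stress-inducible Hsp90aa1 stood at 72.8 TPM in replicate 2 and 165 TPM in replicate 1 (log2 ratio -0.82), while its constitutive partner Hsp90ab1 had -0.26. By the ratio of the deposited TPM 1 chaperone was past 2-fold. The other past 1.5-fold was Stip1, which hands clients to Hsp90, at -0.59 and named after its value was seen. Fkbp4, the co-chaperone that Fkbp5 competes with, had -0.28 and Hsp90b1, of the endoplasmic reticulum, 0.08. Among 11 coactivators and corepressors 0 were past 1.5-fold, and the median was 0.05. Their most abundant member, the corepressor Ncor1, was at 47.7 TPM in replicate 2 and 45.4 TPM in replicate 1.

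Among 30 other genes known to be induced by glucocorticoids in some tissue, 28 averaged 1 TPM or more and were compared. In replicate 2, 8 of the 28 were at least 2-fold lower and 1 higher, and 11 were at least 1.5-fold lower and 2 higher, with a median of -0.39. Over all genes 1.13% were lower and 0.533% higher at 2-fold, and 2.88% lower and 2.17% higher at 1.5-fold. This list was also drawn up with some of these ratios known. The 8 were Pck1 (gluconeogenesis), Irs2 (insulin signalling), Fam107a, Arrdc2, Ddit4 (an mTOR inhibitor), Cebpb, the cell-cycle inhibitor Cdkn1a and the clock gene Per1. Their log2 ratios ran between -1.97 for Pck1, which is also an adipocyte marker, and -1.07 for Per1. Spike-in scaling left 8 of the 9 genes past 2-fold. Cdkn1a stood at 17.7 TPM in replicate 2 and 40.8 TPM in replicate 1, and Irs2 at 2.32 TPM in replicate 2 and 7.17 TPM in replicate 1. Nfkbia, Zfp36 and Cebpd, named after their values were seen, made up the 11, at -0.79, -0.74 and -0.75.

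The 2 that were at least 1.5-fold higher in replicate 2 were Angptl4 and Pdk4. Angptl4, which blocks lipoprotein lipase, was at 9.79 TPM in replicate 2 and 2.2 TPM in replicate 1 (log2 ratio 2.26). Pdk4, the kinase that shuts off pyruvate oxidation, stood at 253 TPM in replicate 2 and 166 TPM in replicate 1 (log2 ratio 0.84). Between these extremes lay Glul, the glutamine synthetase, at 0.02, Ptgds, the prostaglandin D synthase, at 0.15 and the ubiquitin ligase Trim63 at -0.47.

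Genes of hormone supply were mostly at or near 0. Of 14 genes of corticosteroid synthesis, carriage and metabolism 3 reached 1 TPM, and 5 were listed at 0 in both libraries, among them the aldosterone synthase Cyp11b2 and the plasma carrier Serpina6. Hsd11b2, the enzyme that inactivates corticosterone, was listed at 0 TPM in replicate 2, and at 0.09 TPM, or 5 counts, in replicate 1. H6pd, which supplies Hsd11b1 with its cofactor, was at 11.5 TPM in replicate 2 and 14.3 TPM in replicate 1.

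All 16 clock genes were compared, a list that shares Per1 with the induced genes. By TMM scaling Per1 alone was at least 2-fold lower, at 7.39 TPM in replicate 2 and 15.6 TPM in replicate 1. Of all genes 1.13% were. Spike-in scaling put 0 clock genes past 2-fold, and total counts, DESeq2 scaling, a prior count of 0.5, the second table and the deposited TPM ratio each put 2. Per2, named after its value was seen, was at 0.81 TPM in replicate 2 and 2.24 TPM in replicate 1, its log2 ratio falling just short of 2-fold. The median of the list was 0.04, with 5 counting intervals below 0 and 8 above, against 20.6% and 14.5% of all genes. Of its most abundant genes Bhlhe40 was at -0.56 (-0.71 to -0.42), Nr1d2 at -0.17, Clock at 0.08, Nr1d1 at 0.12 and Tef at 0.20. The part of the clock in the ratios of the 10 genes was not tested.

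**Figure D5:**
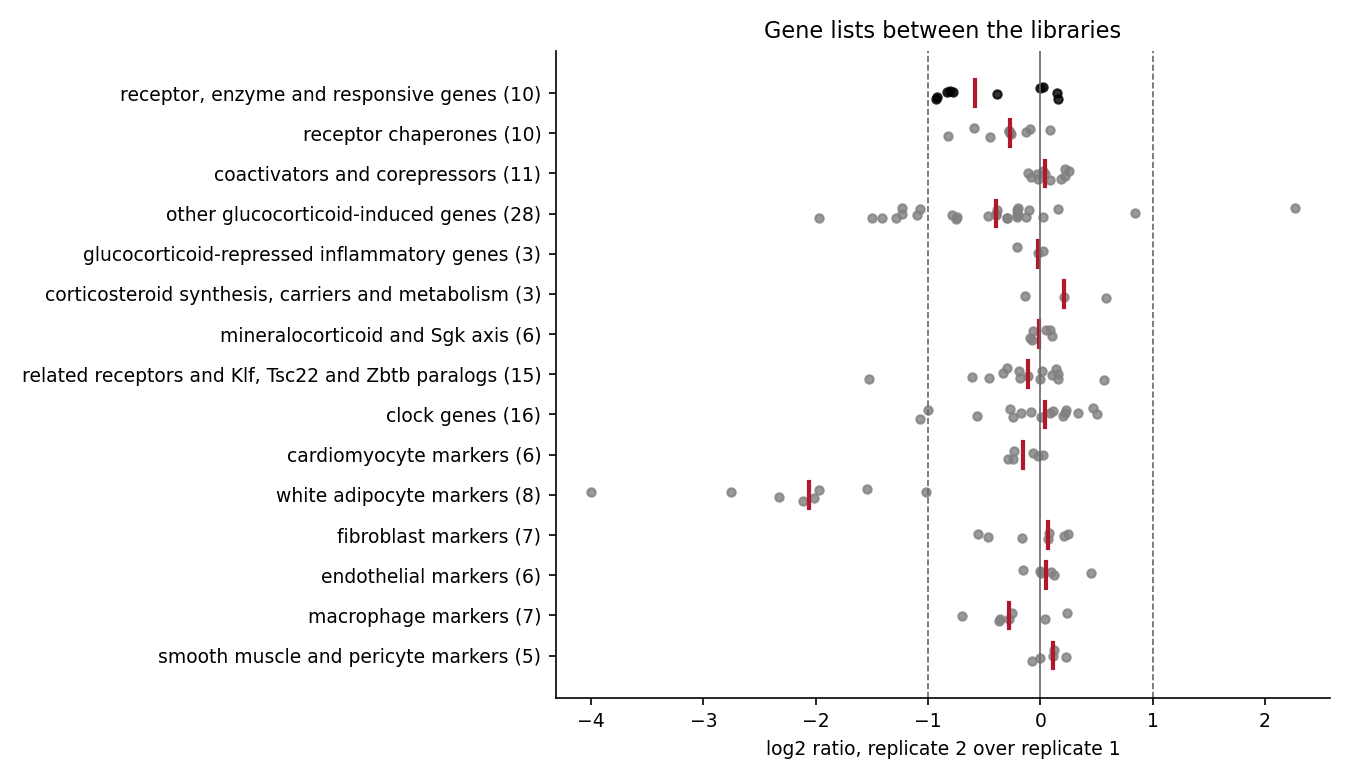
Log2 ratio of replicate 2 over replicate 1 for each gene averaging 1 TPM or more, by list, with the number of genes in brackets. Red bars are medians and dashed lines 2-fold; the 10 genes have a median of -0.58, the receptor chaperones -0.27, other glucocorticoid-induced genes -0.39 and white adipocyte markers -2.06.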

How the data were processed

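For either library a gene table and 2 transcript tables were read. The deposited gene table and first transcript table hold expected counts and TPM, made by the authors from alignments to the transcriptome on mm10 with GENCODE M21, per the deposited file list. Their interval bounds for TPM, treated as scores without a stated level, are the authors' own. The second deposited transcript table holds estimated counts and TPM and was summed per gene. Tool names and versions are not given in the sources used here. Values are not split by allele, and CAST/EiJ reads were assigned on the reference annotation too.

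Spike-ins and unannotated entries were left out of library sizes. Counts were rounded to whole numbers. Ratios used TMM from edgeR 4.0.16 (R 4.3.3), a prior count of 2 and genes averaging 1 TPM or more. Alternatives were total counts, summed spike-ins, DESeq2 1.42.0 size factors, a prior count of 0.5, filters of none and 5 TPM, a 1.5-fold threshold and the second table. Levels were also rescaled to the TPM of nuclear protein-coding genes only. The deposited TPM ratio was added after seeing the data. DESeq2 and edgeR served for scaling only. Counting intervals are exact Clopper-Pearson at 95% and cover counting error only. The steps were tested on simulated data. Transcripts with at least 5% of their gene in either table could be named. From each list the 6 genes of highest mean TPM, those past 2-fold and those below 1 TPM could be named. Members and lists were chosen with earlier results of these data known. Some genes within this rule are not reported here.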

Additional observations from a re-analysis of the deposited data

How the results depend on the processing

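None of the 10 genes was past 2-fold lower in replicate 2 with TMM, spike-in or DESeq2 scaling, a prior count of 0.5, other TPM filters or the second table. The count was 1 with total counts, 4 with the deposited TPM ratio and 5 at 1.5-fold. Among all genes, 138 were 2-fold lower and 65 higher; without a filter these were 737 and 1273, at 5 TPM or more 49 and 20, and by the TPM ratio 236 were lower. The filters change which genes are compared, and the cause of the changes in these counts was not tested. The share of Nr3c1 in both receptors was 75.2%, between 74.8% and 75.6% with either library left out, 78.1% in the second table and 77.7% by counts. Levels moved when TPM was rescaled to nuclear protein-coding genes only. The mean of Nr3c1 was then 64.3 TPM in place of 24.7 TPM, and that of Nr3c2 21.3 TPM in place of 8.15 TPM. On that scale Nr3c1 was at 70.3 TPM in replicate 2 and 58.3 TPM in replicate 1. Transcript shares moved with the table, and leaders agreed in both libraries and tables for 5 of the 10 genes. No paired analysis was possible because the libraries form 1 group. Counting intervals of Hsd11b1 and Zbtb16 included 0, and the spread between libraries is known from 1 pair only.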

Other observations

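Of 19 related receptors and Klf, Tsc22, Fkbp and Zbtb paralogs 15 averaged 1 TPM or more and were compared, with a median log2 ratio of -0.11, 1 at least 2-fold lower in replicate 2 and 0 higher. At 1.5-fold 2 were lower, Nr4a1 and Klf6, and 0 higher. Over all genes 1.13% were lower and 0.533% higher at 2-fold, and 2.88% lower and 2.17% higher at 1.5-fold. With a filter of 5 TPM, 0 of the list were past 2-fold. Among the Klf paralogs Klf6, Klf13, Klf2 and Klf4 had log2 ratios of -0.60, -0.46, -0.33 and -0.30, and Klf3 and Klf10 had 0.10 and 0.56; all but Klf2 are named after their values were seen. Tsc22d1 stood at 143 TPM in replicate 2 and 157 TPM in replicate 1 (log2 ratio -0.00) and Tsc22d4 at 86.5 TPM in replicate 2 and 102 TPM in replicate 1 (0.01), while Tsc22d3 had -0.93. Fkbp1a, the protein bound by rapamycin and FK506, had -0.18 and Fkbp8 -0.19, where Fkbp5 had -0.80. Nr4a1, an orphan receptor induced within minutes by many stimuli, was the 1 past 2-fold, at 1.66 TPM in replicate 2 and 4.24 TPM in replicate 1. The estrogen receptor Esr1 was below 1 TPM, and Esr2 was listed at 0 in both.

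Of 11 genes of the mineralocorticoid and Sgk axis, which holds activators and relatives of Sgk1 as well as targets, 6 were compared and 0 were past 1.5-fold, with a median of -0.01. At 1.5-fold 2.88% of all genes were lower and 2.17% higher. The epithelial sodium channel subunits Scnn1b and Scnn1g were listed at 0 in both libraries, and the subunit Scnn1a at 0.19 TPM in both. Of 11 inflammatory genes that glucocorticoids repress, 3 were compared, the adhesion molecules Vcam1 at -0.21 and Icam1 at 0.02 and the nitric oxide synthase Nos2 at -0.02. The other 8 were below 1 TPM, and Il6 had 0 counts in replicate 2 and 1 in replicate 1.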
